A study of Homo sapiens with 6 samples.

Results

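Tubulins are the subunits of microtubules, and 10 tubulin genes were followed through an RNA-seq study of TCam-2 cells, an established human seminoma line. The genes were taken by name: 3 α-tubulin genes (TUBA1A, TUBA1B, TUBA1C), 6 β-tubulin genes (TUBB, TUBB2A, TUBB2B, TUBB3, TUBB4B, TUBB6) and the γ-tubulin gene TUBG1. They are 10 of the 62700 genes in the gene table, and 69 of the 251955 transcripts in the transcript table belong to them. The rule sets no threshold on a measured value, but the genes were chosen with earlier results of these data known. All the cells are the same line, and each of 3 groups has 2 libraries: cells that were not transduced (WT), cells carrying GFP_FLAG by transduction (GFP), and cells carrying RBMXL3_FLAG in the same way (RBMXL3), a tagged RNA-binding protein of the RBMX family. WT and GFP both served as negative controls for RBMXL3 overexpression. The labels name neither the vector or its promoter, nor whether the transduced cells were a pool or a clone, nor whether the 2 libraries of a group came from separate cultures. The p-values below therefore measure only the spread between these libraries, which may be technical.

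α- and β-tubulin pair as heterodimers that polymerise into microtubules, while γ-tubulin sits in ring complexes that start new microtubules. Vertebrates have several α and β genes, called isotypes, whose proteins are close to identical over most of their length and differ mainly at the C-terminal tail. New tubulin chains are passed from prefoldin to the CCT chaperonin and then to the tubulin cofactors, which assemble the dimer. Cells also hold tubulin mRNA in check by autoregulation: with excess free dimer, TTC5 recognises the start of an α- or β-tubulin chain as it leaves the ribosome, and the mRNA is degraded.

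The start of the coding sequence is shown here for all 10 genes, because it sets the α and β members apart from TUBG1. It encodes the start of the chain, which is what autoregulation reads. Each line holds the first 24 coding bases of the principal transcript, from the GENCODE 29 transcript sequences, with the first 12 in capitals.
TUBA1A: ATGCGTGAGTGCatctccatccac
TUBA1B: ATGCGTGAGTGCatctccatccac
TUBA1C: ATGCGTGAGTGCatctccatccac
TUBB: ATGAGGG-3.87TCgtgcacatccag
TUBB2A: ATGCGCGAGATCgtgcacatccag
TUBB2B: ATGCGTGAGATCgtgcacatccag
TUBB3: ATGAGGGAGATCgtgcacatccag
TUBB4B: ATGAGGG-3.87TCgtgcacttgcag
TUBB6: ATGAGGGAGATCgtgcacatccag
TUBG1: ATGCCGAGGGAAatcatcacccta
The 3 α genes shared all 24 bases. Among the β genes the capitals were the same in TUBB and TUBB4B and in TUBB3 and TUBB6, whereas TUBB2A and TUBB2B each had their own. Over the whole coding sequence TUBB2A and TUBB2B were 98.2% identical and TUBA1A and TUBA1B 97.2%, against 80.9% for TUBB and TUBB6, the least alike pair of β members.

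This likeness bears on the counting. Of the 50-base words of the principal transcript, 60.3% of those of TUBB2A, 56.6% of those of TUBA1B and 51.7% of those of TUBA1A also occurred in another of the 10 genes, against 0.993% in TUBB6 and 0% in TUBB and TUBG1. Counted over any other annotated gene, on either strand, the shares were 65.5% in TUBB2A, 87.1% in TUBA1B and 51.8% in TUBA1A. Counted in that way TUBB6 stayed at 0.993%, but TUBB was at 30.8% and TUBG1 at 30.3%, mostly with TUBG2 for the latter. The read counter and its treatment of reads that match several genes are not given in the sources used here, so the values of the near-identical genes are uncertain. TUBB3 had the largest share: 89.4% of its words also lie in ENSG00000198211, a read-through gene annotated over the same exons. The read counts of TUBB3 are given below only with that limit.

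Depth ran from 17685680 to 29318007 reads per library and was lowest in the RBMXL3 group. RBMXL3 itself had 0 reads in all 4 controls and 108.1 and 72.7 normalised reads (reads divided by the authors' size factor of the library) in its own libraries. The seminoma markers POU5F1, NANOG, SOX17, TFAP2C, PRAME, PRDM1, KIT, PDPN, LIN28A and ALPL were present in every library. KIT was the lowest of these, at 1411 to 2578 normalised reads. Of the embryonal carcinoma markers, chosen as genes that should be low, SOX2 had 11.7 to 34.2 normalised reads but DNMT3L had 765 to 1444. The immune, endothelial and Leydig markers PTPRC, PECAM1, INSL3 and STAR stayed at or under 9.01. Of the fibroblast markers COL1A2 had 8093 to 12709 normalised reads, COL1A1 206 to 407 and DCN 0 to 1.69, and of the Sertoli cell markers GATA4 had 830 to 994, AMH 93.3 to 187 and WT1 2.57 to 10.2. Mitochondrial genes took 1.31% of the reads in GFP replicate 1 and 2.02% to 3.02% in the other 5 libraries. That library also stood apart for the tubulin genes: it held the highest normalised read count of all 6 libraries for 10 of 10 members, while 19.4% of all genes tested had their highest value there. In summed TPM (the length-corrected share of transcripts, TPM, added over the transcripts of a gene) it was highest for 8 of 10. Its part in the results was not tested, and the fitted read-count differences from GFP are given with and without it, a choice made after seeing the data where genes outside the 10 are concerned.

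Compared per length, in TPM, tubulin expression in TCam-2 cells was carried by a few isotypes. TUBA1B was the most abundant, with 2423 to 3585 TPM over the 6 libraries, followed by TUBA1C with 1982 to 2639 and TUBB with 1362 to 1503. TUBA1A came next at 568 to 807 TPM, then TUBB4B at 451 to 548, TUBB6 at 154 to 201, TUBB3 at 130 to 159 and TUBG1 at 85.5 to 119. TUBB2A, at 31.6 to 51.8 TPM, and TUBB2B, at 32.4 to 41.7, were lowest. The ranges of neighbours in this order were apart except for TUBA1B with TUBA1C, TUBB6 with TUBB3, and TUBB2A with TUBB2B. TUBA1B lay above TUBA1C, and TUBB6 above TUBB3, in 6 of 6 libraries, whereas TUBB2A lay above TUBB2B in only 4 of 6. Among the β-tubulin genes outside the 10, TUBB4A held 8.53% to 9.61% of all β-tubulin TPM.

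**Figure D1:**
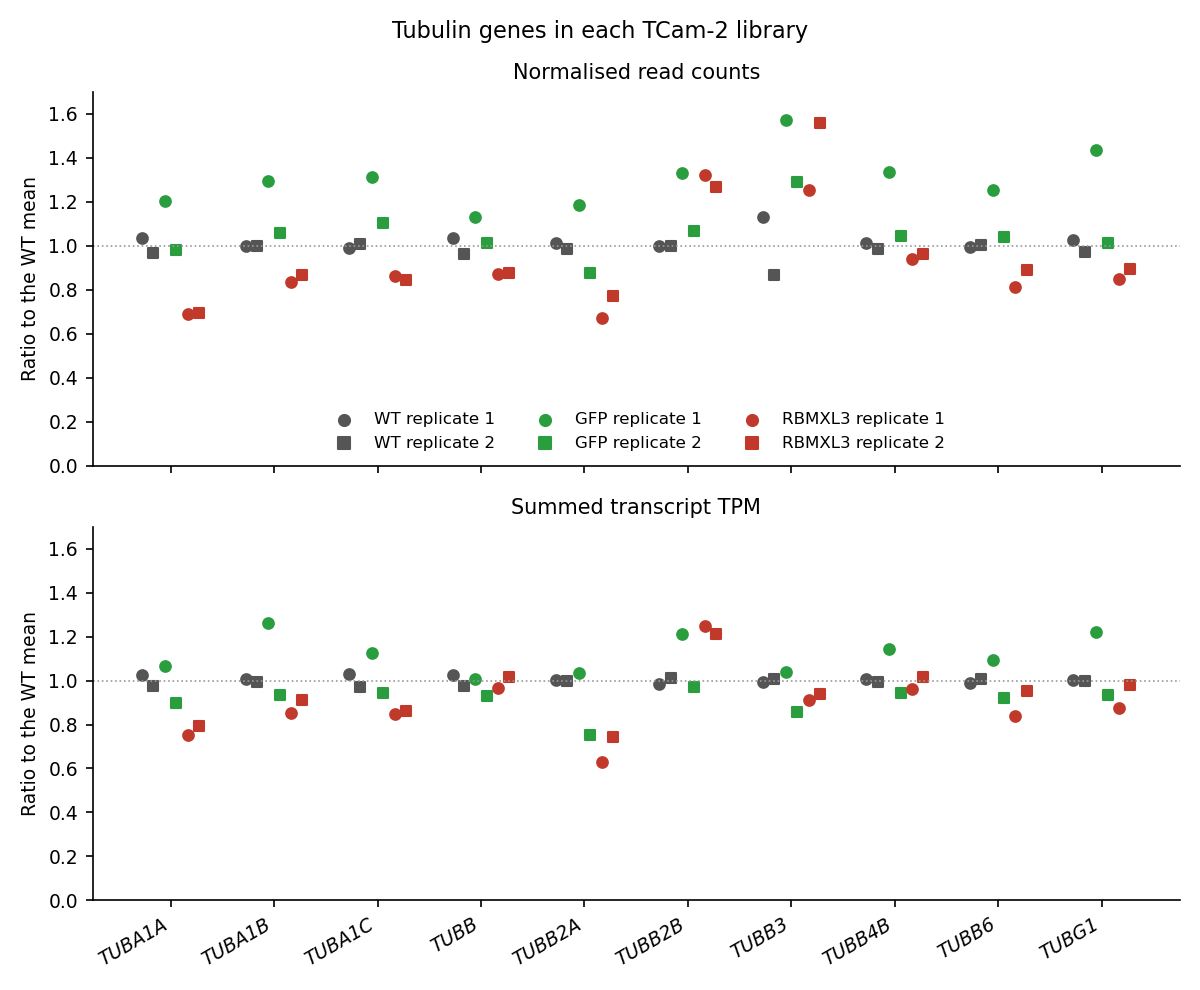
Level of each tubulin gene in each library as a ratio to the mean of the 2 WT libraries (y axis), in normalised read counts (top) and summed TPM (bottom); circles are replicate 1 and squares replicate 2. In normalised reads both RBMXL3 libraries lie below all 4 controls for 8 of the 10 genes, and GFP replicate 1 is the highest library for 10 of 10; in summed TPM the first count is 4 of 10 and the second 8 of 10.

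RBMXL3 cells had less tubulin mRNA than GFP cells for 6 of the 10 genes: TUBA1A, TUBA1B, TUBA1C, TUBB2A, TUBB6 and TUBG1 fell at a Benjamini-Hochberg adjusted p under 0.05 (limma on log2 of value + 1, where the value is the normalised read count divided by a common factor of 23.9, over 14292 genes, with all 6 libraries in 1 fit), and 0 rose. Over all genes 20.9% passed that threshold in this comparison, 10.4% as lower and 10.5% as higher. Against WT, TUBA1A and TUBB2A fell and TUBB2B rose, where 29.9% of all genes passed, 15.3% as lower and 14.6% as higher. TUBA1A and TUBB2A were thus the 2 genes lower against both controls, a call that 6.86% of all genes received, while 6.88% were higher against both. The median log2 difference of the 10 genes was -0.44 against GFP and -0.21 against WT, beside medians over all genes of 0.00 and -0.01. The median against GFP moved to -0.24 when GFP replicate 1 was left out and to -0.58 when GFP replicate 2 was. In bulk RNA less transcript per cell and fewer cells with the transcript cannot be told apart. The 2 comparisons share the RBMXL3 libraries and are not independent of each other. In 8 of 10 members both RBMXL3 libraries lay below all 4 controls in normalised reads, which held for 23.6% of all genes tested, and in 0 of 10 both lay above, which held for 22.5%. Set against the 3 controls other than GFP replicate 1, both lay below in 8 of 10, beside 29.4% of all genes, and above in 1, beside 27.7%.

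These calls depended on single libraries and on the measure. Leaving out 1 library at a time gave 1 to 8 calls against GFP, 0 to 7 against WT and 0 to 6 against both controls; without RBMXL3 replicate 1 or without RBMXL3 replicate 2 the counts were 1, 0 and 0. In those fits the share of all genes that passed against GFP also fell, to 5.88% and 4.60%, and that against WT to 11.5% and 9.99%, while the median of the 10 genes against GFP was -0.37 and -0.49. Without GFP replicate 1, TUBA1A, TUBA1B, TUBA1C and TUBB6 were lower against GFP, where 12.6% of all genes were, and the same 4 genes were lower against both controls, with TUBB2A and TUBG1 not passing against GFP. Of the 6 calls against GFP, that of TUBA1B was lost under quantile normalisation and under scaling by the column total, that of TUBA1C under the first and that of TUBB6 under the second. Those of TUBB2A and TUBG1 were lost under scaling by the column total and with only the 2 groups in the fit. With summed TPM in place of read counts 0 of 10 genes passed in any comparison (limma; unadjusted p under 0.05 in 1 gene against GFP and 3 against WT), where 6.93% of all genes passed against GFP and 11.5% against WT; fewer genes overall passed in TPM. The median log2 difference of the 10 genes in summed TPM was -0.19 against GFP and -0.14 against WT, while the median over all genes against GFP moved to 0.13.

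**Figure D2:**
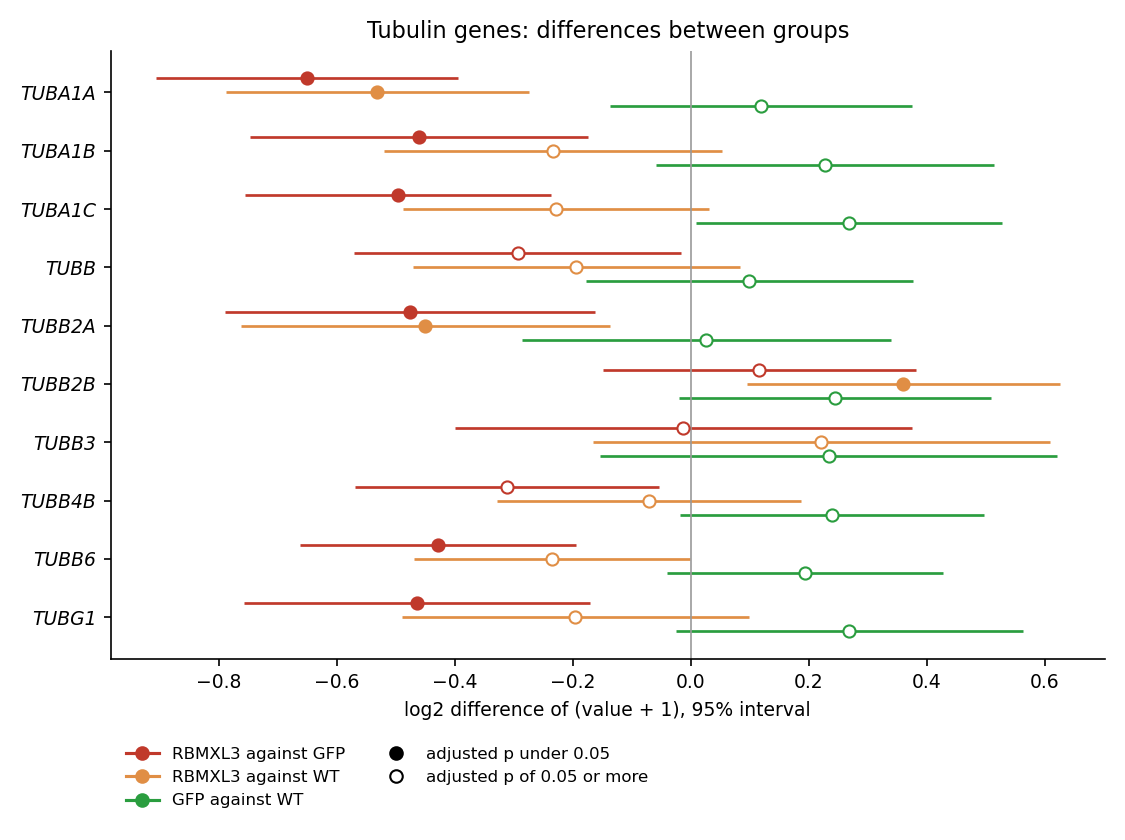
Fitted log2 difference of each tubulin gene between groups (x axis, log2 of value + 1, bars are 95% intervals), filled where the adjusted p was under 0.05. Against GFP 6 genes are filled on the lower side; against WT TUBA1A and TUBB2A are filled as lower and TUBB2B as higher; between GFP and WT none of the 10 is filled.

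TUBA1A (ENSG00000167552.15; chr12:49184796-49189324, minus strand; coordinates of genes are from GENCODE 29 on GRCh38) encodes an α isotype that is prominent in the developing brain and is mutated in lissencephaly. In normalised reads it had the largest fall of the 10 against either control, whereas TUBB2A fell more under quantile normalisation and had the larger difference in summed TPM, at -0.36 against GFP and -0.53 against WT beside -0.34 and -0.37 for TUBA1A; without RBMXL3 replicate 2 the 2 genes were level against WT, both at -0.54. Its normalised reads were 21397 and 19967 in WT, 24894 and 20249 in GFP, then 14218 and 14370 in RBMXL3. The RBMXL3 libraries lay close together and well below all 4 controls. The log2 difference was -0.65 ± 0.12 (SE) against GFP, which is 0.637-fold (limma, adjusted p = 0.0031), and -0.53 ± 0.12 against WT, which is 0.692-fold (adjusted p = 0.0058). It stayed at -0.50 against GFP with GFP replicate 1 left out. In TPM the order was the same, with 568 and 599 in RBMXL3 against 680 to 807 in the controls, and limma's adjusted p was 0.0992 against GFP and 0.0721 against WT. Leaving out a library of the GFP group kept TUBA1A lower against both controls, and so did leaving out WT replicate 2, but with WT replicate 1 or a library of the RBMXL3 group left out it was not.

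TUBA1B (ENSG00000123416.15; chr12:49127782-49131397, minus strand) and TUBA1C (ENSG00000167553.17; chr12:49188736-49274603, plus strand) encode the widely expressed α isotypes of dividing cells and lie beside TUBA1A. TUBA1B had 55853 and 55749 normalised reads in WT, 72203 and 59167 in GFP, then 46621 and 48345 in RBMXL3. TUBA1C had 31545 and 32087 in WT, 41827 and 35097 in GFP, then 27394 and 26895 in RBMXL3. In both genes the RBMXL3 libraries were lowest and did not overlap the controls, and GFP replicate 1 was far above the rest. TUBA1B differed by -0.46 ± 0.13 from GFP (limma, adjusted p = 0.0277) and by -0.23 ± 0.13 from WT (adjusted p = 0.201), the sign against WT turning under quantile normalisation, at 0.023. TUBA1C differed by -0.50 ± 0.12 from GFP (adjusted p = 0.0130) and by -0.23 ± 0.12 from WT (adjusted p = 0.166). Leaving out GFP replicate 1 gave differences from GFP of -0.32 for TUBA1B and -0.37 for TUBA1C, and under quantile normalisation that of TUBA1B was -0.11 and that of TUBA1C -0.32. TUBA1A and TUBA1C overlap head to head on opposite strands, and the strand setting of the counting is not given in the sources used here.

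TUBB (ENSG00000196230.14; chr6:30720201-30725426, plus strand), the main β isotype of most dividing cells, had the highest read counts of the 10. Its normalised reads were 67836 and 63028 in WT, 74017 and 66309 in GFP, then 57003 and 57294 in RBMXL3. Both RBMXL3 libraries were below the controls in reads, but TPM did not show the same order, with 1419 and 1487 in RBMXL3 inside the range of the controls. TUBB did not pass against GFP, at -0.29 ± 0.13 (limma, adjusted p = 0.122), where summed TPM turned the sign to 0.036, nor against WT, at -0.19 ± 0.13 (adjusted p = 0.268), where quantile normalisation turned it to 0.023. Against GFP it was -0.21 without GFP replicate 1, and DESeq2 on the recovered reads gave -0.29 (adjusted p = 0.0430). TUBB4B (ENSG00000188229.6; chr9:137241213-137243707, plus strand), a β isotype abundant in ciliated and dividing cells, had 11675 and 11353 normalised reads in WT, 15367 and 12038 in GFP, then 10805 and 11108 in RBMXL3. The RBMXL3 libraries were only slightly below WT, and neither difference passed, at -0.31 ± 0.12 against GFP (limma, adjusted p = 0.0806) and -0.07 ± 0.12 against WT (adjusted p = 0.681). The difference from GFP was -0.14 once GFP replicate 1 was dropped. The sign against WT turned under quantile normalisation, at 0.058, and under scaling by the column total, at 0.038.

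TUBB6 (ENSG00000176014.13; chr18:12307669-12344320, plus strand), a minor β isotype of many tissues, had 4851 and 4892 normalised reads in WT, 6118 and 5077 in GFP, then 3951 and 4329 in RBMXL3. It fell against GFP by 0.43 on the log2 scale (limma, adjusted p = 0.0159) and did not pass against WT, at -0.23 ± 0.11 (adjusted p = 0.119); without GFP replicate 1 the difference from GFP was -0.29. TUBG1 (ENSG00000131462.9; chr17:42609676-42615234, plus strand), the γ-tubulin that nucleates microtubules at centrosomes, had 2586 and 2454 normalised reads in WT, 3618 and 2553 in GFP, then 2137 and 2257 in RBMXL3. The 2 GFP libraries of TUBG1 were far apart, with replicate 2 near WT. TUBG1 fell by 0.46 against GFP (limma, adjusted p = 0.0298) and did not pass against WT, at -0.20 ± 0.14 (adjusted p = 0.293). Once GFP replicate 1 was left out, the difference from GFP was -0.22 and did not pass (adjusted p = 0.0800).

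TUBB2A (ENSG00000137267.7; chr6:3153669-3157526, minus strand) and TUBB2B (ENSG00000137285.11; chr6:3224261-3231730, minus strand) are neighbouring β genes with nearly the same coding sequence, both best known from neurons. Against WT they moved in opposite directions. TUBB2A had 492.8 and 479.0 normalised reads in WT, 576.6 and 424.8 in GFP, then 325.7 and 374.3 in RBMXL3, the RBMXL3 libraries being lowest. TUBB2B had 552.0 and 551.2 in WT, 735.6 and 588.0 in GFP, then 730.0 and 700.4 in RBMXL3, where the RBMXL3 libraries lay above WT and inside the range of GFP. TUBB2A fell by 0.48 against GFP (limma, adjusted p = 0.0350) and by 0.45 against WT (adjusted p = 0.0335). Against GFP replicate 2 alone TUBB2A differed by -0.27 (adjusted p = 0.145). TUBB2B rose by 0.36 ± 0.12 against WT (limma, adjusted p = 0.0415), and its difference from GFP was 0.12 ± 0.12 (adjusted p = 0.535), with a sign that turned to -0.039 without GFP replicate 2, and 0.27 without GFP replicate 1. TUBB2A did not pass against both controls when any library other than GFP replicate 2 was left out, and TUBB2B did not pass against WT without any 1 library of the WT or RBMXL3 group. The call of TUBB2B was also lost with the replicate block (limma, adjusted p = 0.0542) and under quantile normalisation (adjusted p = 0.0565).

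The ratio of TUBB2B to TUBB2A shows the shift within each library, and normalisation between libraries does not enter it. In reads it was 1.12 and 1.15 in WT, 1.28 and 1.38 in GFP, then 2.24 and 1.87 in RBMXL3. In TPM it was 0.657 and 0.677 in WT, 0.781 and 0.858 in GFP, then 1.32 and 1.09 in RBMXL3. Both measures placed RBMXL3 above all controls, and TUBB2A was the more abundant of the pair per length in the 4 controls and the less abundant in RBMXL3. This ratio was chosen after its values had been seen and is given as a description, with no test. Since most 50-base words of TUBB2A also lie in TUBB2B, reads assigned to one may come from the other.

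The upstream sequences of these 2 genes are printed because the genes share nearly all of their coding sequence but differed in direction against WT, and that of TUBA1A because it had the largest fall in normalised reads. Each line holds the 250 bases before the gene start as RefSeq places it (GRCh38.p14), on the minus strand. Capitals mark matches to the CCAAT box (CCAAT), the GC box (GGGCGG) and the TATA box (TATAAA), read on both strands. The regions are chr12:49189081-49189330, chr6:3157545-3157794 and chr6:3227654-3227903.
TUBA1A: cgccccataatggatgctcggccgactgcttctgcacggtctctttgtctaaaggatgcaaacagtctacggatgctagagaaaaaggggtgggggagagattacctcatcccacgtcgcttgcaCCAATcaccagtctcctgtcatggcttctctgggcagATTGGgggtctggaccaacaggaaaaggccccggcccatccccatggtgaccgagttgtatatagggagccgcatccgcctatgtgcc
TUBB2A: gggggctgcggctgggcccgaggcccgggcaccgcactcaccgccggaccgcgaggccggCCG-3.52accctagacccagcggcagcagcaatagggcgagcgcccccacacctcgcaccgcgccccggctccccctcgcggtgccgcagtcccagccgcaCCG-3.52ccgcggccacagccCCG-3.52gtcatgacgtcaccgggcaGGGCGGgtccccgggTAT-3.87agaccgagctggggGGGCGGcggc
TUBB2B: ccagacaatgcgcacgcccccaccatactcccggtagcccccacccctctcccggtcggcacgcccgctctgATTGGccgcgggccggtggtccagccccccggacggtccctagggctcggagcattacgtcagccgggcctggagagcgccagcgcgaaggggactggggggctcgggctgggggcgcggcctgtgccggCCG-3.52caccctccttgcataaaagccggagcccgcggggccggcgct
In the 300-base window searched, which also holds 50 bases after the gene start, TUBB2A had 5 GC boxes and 1 TATA box and no CCAAT box, TUBB2B had 1 CCAAT box and 1 GC box, and TUBA1A had 2 CCAAT boxes. Of 34943 RefSeq promoter windows of this length, 34.6% held a CCAAT box, 44.9% a GC box and 11.6% a TATA box. These matches describe the sequence and were not tested for a link with expression. All 10 genes had a promoter entry, and TUBB4B, with 3, had the most CCAAT boxes in one window.

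TUBB3 (ENSG00000258947.8; chr16:89921392-89938761, plus strand), the β isotype used as a marker of neurons, gave the clearest disagreement between the 2 tables. Its normalised reads were 18.6 and 14.3 in WT, 25.9 and 21.2 in GFP, then 20.6 and 25.7 in RBMXL3, while its TPM was between 130 and 159. That is a median of 0.155 normalised reads per TPM, against 10.2 to 44.6 in the other 9 genes. The overlapping ENSG00000198211 was listed at 0 reads in all 6 libraries. TUBB3 differed by -0.01 ± 0.18 from GFP and 0.22 ± 0.18 from WT (limma, adjusted p = 0.970 and 0.370), with signs that turned to 0.048 against GFP under scaling by the column total and to 0.059 without GFP replicate 1, and to -0.11 against WT in summed TPM. With 16 to 28 reads per library, differences of this size are not detectable in the read counts.

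**Figure D3:**
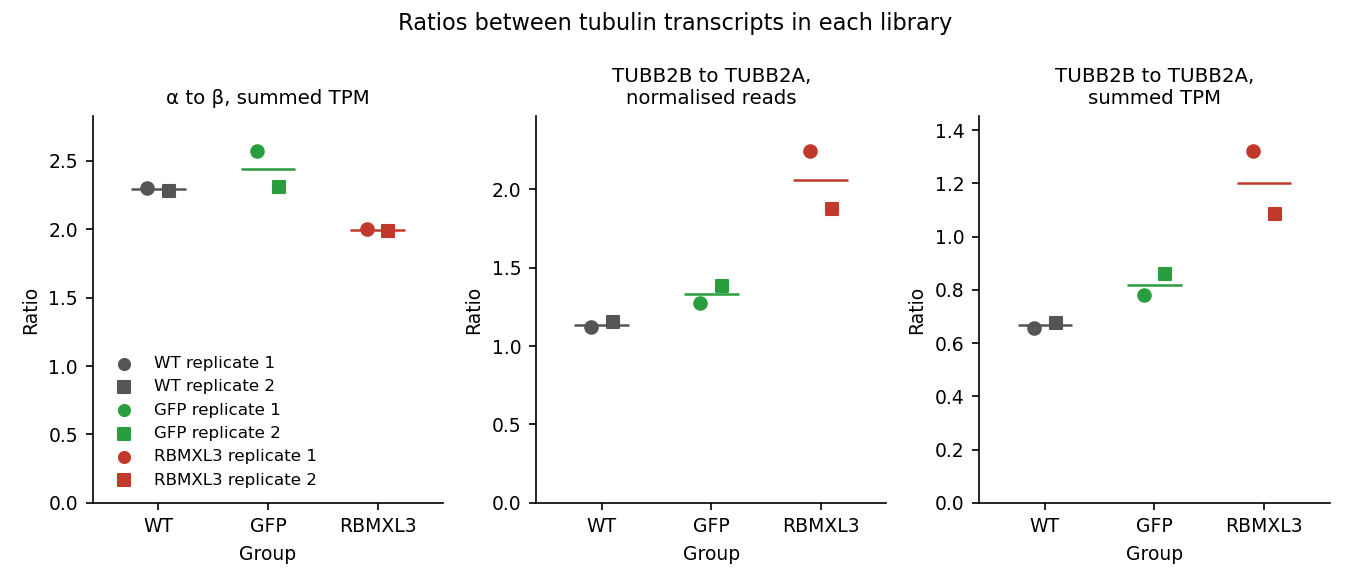
Ratio of summed α-tubulin to summed β-tubulin TPM (left) and of TUBB2B to TUBB2A in normalised reads (middle) and summed TPM (right), 1 point per library, with a line at each group mean. The α to β ratio is lowest in the RBMXL3 libraries, at 2.0 and 1.99, and the TUBB2B to TUBB2A ratio is highest there, at 2.24 and 1.87 in reads.

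Summed over all annotated isotypes, α-tubulin TPM was 6050 and 5830 in WT, 7033 and 5540 in GFP, then 4974 and 5208 in RBMXL3, so that both RBMXL3 libraries lay below the controls. β-tubulin TPM was 2626 and 2554 in WT, 2737 and 2397 in GFP, then 2486 and 2621 in RBMXL3, where the groups overlapped. The ratio of α to β TPM was 2.30 and 2.28 in WT, 2.57 and 2.31 in GFP, then 2.0 and 1.99 in RBMXL3. These sums were not tested. The make-up of the α pool did not separate the groups: TUBA1B held 47.3% to 51.0% of α-tubulin TPM, TUBA1C 37.5% to 39.9% and TUBA1A 11.4% to 12.8%, with RBMXL3 inside or at the edge of these ranges. Within the β pool, TUBB2A made up 1.27% and 1.43% in RBMXL3 against 1.58% to 1.96% in the controls, and TUBB6 made up 6.19% and 6.67% against 6.94% to 7.35%. TUBB2B was higher, at 1.68% and 1.55% against 1.26% to 1.48%. TUBB itself held 53.8% to 57.3% of β-tubulin TPM without separating the groups.

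GFP cells were compared with WT cells to see what transduction alone went with. In limma 0 of 10 tubulin genes passed, where 3.67% of all genes did. On the recovered reads 0 of 10 also passed in edgeR and in DESeq2, where 3.32% and 4.86% of all genes did. Unadjusted p was under 0.05 in 1 gene in limma (TUBA1C), in 3 in edgeR and in 4 in DESeq2. The median log2 difference of the 10 genes was 0.23 in the direction of GFP, against 0.062 with GFP replicate 1 left out and 0.35 with GFP replicate 2 left out. The 2 GFP libraries gave different answers. With GFP replicate 2 left out, so that replicate 1 stood alone for the group, 7 of the 10 genes were higher in GFP, where 8.89% of all genes were. With replicate 1 left out 0 of the 10 were, beside 2.92% of all genes. A lone library is assumed in such a fit to vary like those of the other groups. In summed TPM 0 of 10 passed, and so did 0% of all genes tested.

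At the level of single transcripts 27 of the 69 passed the filter of 1 TPM in 2 libraries, and 0 of these 27 passed the test in any of the 3 comparisons (limma on log2 of TPM + 1; unadjusted p under 0.05 in 3 against GFP, 6 against WT and 0 between GFP and WT). Over all transcripts 1.25% passed against GFP, 1.53% against WT and 0% between GFP and WT. Most of the genes were carried by 1 transcript. TUBB2B-201 and TUBG1-201 held at least 99.5% of the TPM of their genes in every library, TUBA1A-202 at least 98.4%, TUBB-205 98.8%, TUBB4B-201 98.9%, TUBB3-201 96.8% and TUBB2A-201 94.8%.

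TUBA1C, TUBA1B and TUBB6 were more mixed. TUBA1C TPM was divided among TUBA1C-202, with 27.1% to 37.7%, TUBA1C-204, with 28.3% to 37.7%, and the retained-intron form TUBA1C-203, with 26.2% to 44.0%, while the principal transcript TUBA1C-201 held under 1%. TUBA1B-206 was listed at 119 TPM in WT replicate 1 and 561 TPM in GFP replicate 1 and at 0 in the other 4 libraries, so that TUBA1B-202 held 95.8% and 84.3% in those 2 libraries and at least 99.8% elsewhere. TUBB6-213 held 10.3% and 11.2% of TUBB6 TPM in RBMXL3 against 5.90% to 8.97% in the controls. Its log2 TPM difference was 0.35 ± 0.17 against GFP (limma, adjusted p = 0.355) and 0.60 ± 0.17 against WT (adjusted p = 0.177), and without GFP replicate 1 it was 0.21 against GFP. The retained-intron form TUBB4B-202 was also highest in RBMXL3, at 5.03 and 3.52 TPM against 1.59 to 2.90 in the controls, and did not pass (limma, adjusted p = 0.160 against GFP and 0.314 against WT, and 0.291 against GFP without GFP replicate 1).

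The largest differences at the tubulin loci were in genes annotated on the opposite strand. TUBA1B-AS1 (ENSG00000258017.3; chr12:49127782-49147869, plus strand, opposite TUBA1B) had 610.5 and 486.6 normalised reads in WT, 434.3 and 577.4 in GFP, then 20.6 and 13.9 in RBMXL3. ENSG00000258232 (chr12:49265156-49273306, minus strand, opposite TUBA1C) had 205.7 and 203.0 in WT, 182.0 and 261.7 in GFP, then 5.15 and 7.49 in RBMXL3. ENSG00000272540 (chr6:30723105-30723877, minus strand, opposite TUBB) had 370.0 and 258.4 in WT, 268.9 and 338.0 in GFP, then 12.9 and 3.21 in RBMXL3. In all 3 the RBMXL3 libraries were far below the 4 controls, and WT and GFP overlapped. Summed TPM gave the same picture, with TUBA1B-AS1 at 44.3 to 54.6 TPM in the controls and at 2.59 and 2.04 TPM in RBMXL3.

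All 3 antisense genes fell against both controls. The log2 difference from GFP was -3.68 ± 0.17 for TUBA1B-AS1 (limma, adjusted p = 2.2e-07), -3.01 ± 0.17 for ENSG00000258232 (adjusted p = 8.9e-07) and -3.37 ± 0.20 for ENSG00000272540 (adjusted p = 9.6e-07). Against WT the differences were -3.80, -2.92 and -3.40, and each gene passed. Leaving out GFP replicate 1 made those from GFP -3.87, -3.24 and -3.52. Each also passed against both controls under every alternative fit run, summed TPM and each left-out library included. The tubulin gene on the other strand fell far less or did not pass, so that TUBA1B-AS1 reads went from 0.602% to 1.09% of the reads of TUBA1B in the controls to 0.044% and 0.029% in RBMXL3. Reads of ENSG00000258232 were 0.435% to 0.746% of those of TUBA1C in the controls and 0.019% and 0.028% in RBMXL3. Reads of ENSG00000272540 were 0.363% to 0.545% of those of TUBB in the controls and 0.023% and 0.006% in RBMXL3. Of the exon bases of these 3 genes, 80.2%, 97.9% and 69.6% lie under exons of the tubulin gene. The libraries were made with a stranded kit, per the labels' protocols, but it is not stated that the counting used strand, and without strand such reads cannot be told apart from those of the tubulin gene.

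As background, 445 genes that GENCODE 29 types as antisense were tested. Of these 11.5% passed as lower against GFP and 14.6% against WT, beside 10.4% and 15.3% of all genes. As higher, 2.92% passed against GFP and 4.72% against WT, beside 10.5% and 14.6% of all genes. FAM166A, which overlaps the 3′ end of TUBB4B, was under the filter, with 14 to 32 reads in the controls and 0 and 3 in RBMXL3. The protein-coding genes opposite TUBB2B, TUBB6 and TUBG1 did not pass. PSMG4 had 83.9 to 154 normalised reads in the controls and 73.4 and 97.3 in RBMXL3, AFG3L2 had 3114 to 3584 and then 2928 and 2983, and RETREG3 had 981 to 1066 and then 946 and 1053.

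**Figure D4:**
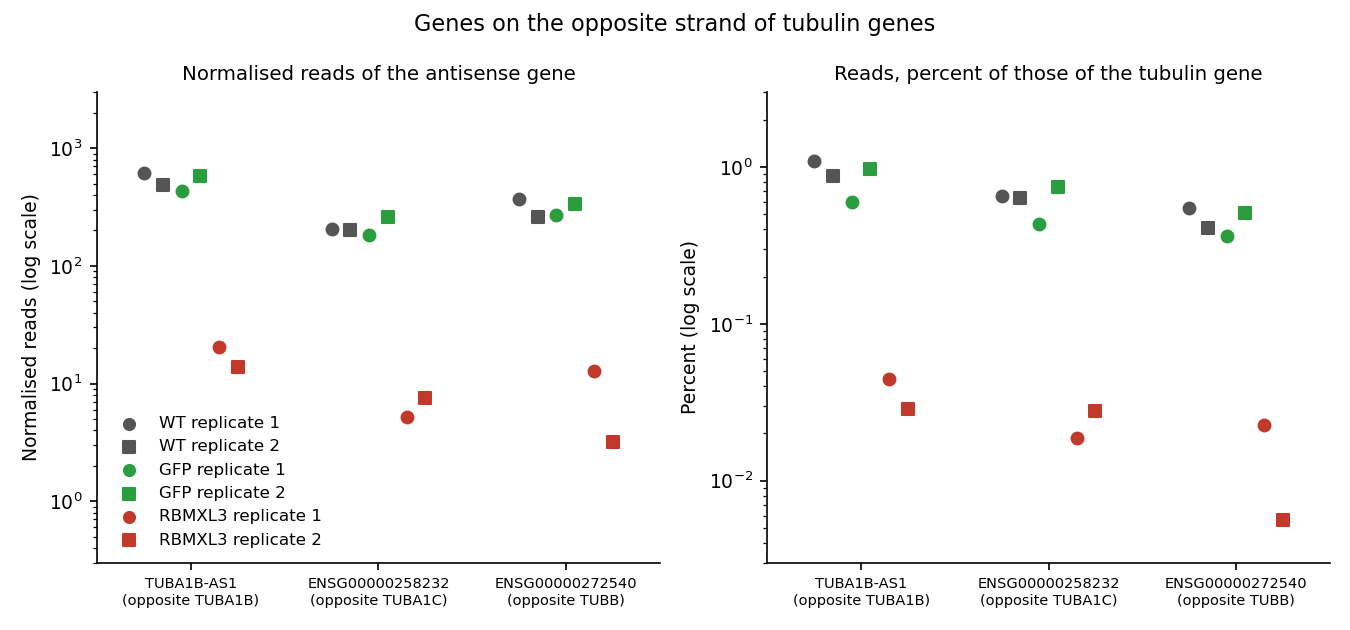
Normalised reads of 3 genes on the strand opposite TUBA1B, TUBA1C and TUBB (left, log axis) and their reads as a percent of those of the tubulin gene (right, log axis), 1 point per library. The RBMXL3 libraries lie between 3.21 and 20.6 normalised reads, and the 4 controls between 182.0 and 610.5.

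Among the gene lists around tubulin, in normalised reads, the CCT chaperonin had the largest share of genes that passed against either control. This complex, the ring that folds α- and β-tubulin and actin, had 8 of 8 subunit genes tested. Against GFP 6 of these passed as lower, against WT 6 also did, and 5 passed against both, where 10.4%, 15.3% and 6.86% of all genes did. The medians were -0.41 and -0.47. Without GFP replicate 1 all 8 passed as lower against either control, where 12.6% and 22.9% of all genes did. CCT8 had 19832 and 19803 normalised reads in WT, 18555 and 21787 in GFP, then 13669 and 13042 in RBMXL3, a fall of 0.59 against GFP (limma, adjusted p = 0.0036). CCT7 fell by 0.68 and CCT5 by 0.55 against GFP (limma, adjusted p = 0.0012 and 0.0058). In the fit that leaves out GFP replicate 1 the differences were -0.71 for CCT8, -0.60 for CCT7 and -0.46 for CCT5, and all 3 passed. In all 3 subunits the RBMXL3 libraries lay below the controls. Of the 6 prefoldin subunits, which hand unfolded tubulin to CCT, 2 passed as lower against GFP and 1 against WT. Their median difference from GFP was -0.32, and -0.30 without GFP replicate 1. PFDN1 passed against both, at -0.41 and -0.32, and differed from GFP by -0.39 without that library. With all 6 libraries in the fit PFDN4 passed against neither control, at -0.34 against GFP and -0.15 against WT. Without GFP replicate 1, PFDN4 differed from GFP by -0.68, and GFP differed from WT by 0.54. Its normalised reads were 1147 to 1859 in the controls and 1145 and 1151 in RBMXL3. Of the tubulin cofactors 6 of 7 were tested and 0 passed in either comparison, with or without GFP replicate 1. The same held for the 3 autoregulation genes, and TTC5 had 323 to 362 normalised reads in the controls and 363 and 329 in RBMXL3.

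MZT1 stood out among the partners of γ-tubulin, being the one gene that passed as higher against both controls with all 6 libraries in the fit. Of 10 other genes of the γ-tubulin ring complex 1 passed as higher against GFP, and against WT 3 passed as higher and 1 as lower, beside 10.5% of all genes higher against GFP and, against WT, 14.6% higher and 15.3% lower. The median difference of the 10 from GFP was -0.0075, and 0.087 without GFP replicate 1. TUBGCP6, a large subunit, differed from GFP by 0.48 with all libraries and by 0.76 without GFP replicate 1, and from WT by 0.40. MZT1, a small subunit that ties the complex to its activators, had 344 and 326 normalised reads in WT, 234 and 432 in GFP, then 856 and 806 in RBMXL3. It rose by 1.32 ± 0.20 against GFP and 1.25 ± 0.20 against WT (limma, adjusted p = 0.0012 and 8.4e-04), and by 0.91 against GFP without GFP replicate 1. TUBG2, the second γ-tubulin gene, did not pass, with 165 to 213 normalised reads in the controls and 198 and 205 in RBMXL3.

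**Figure D5:**
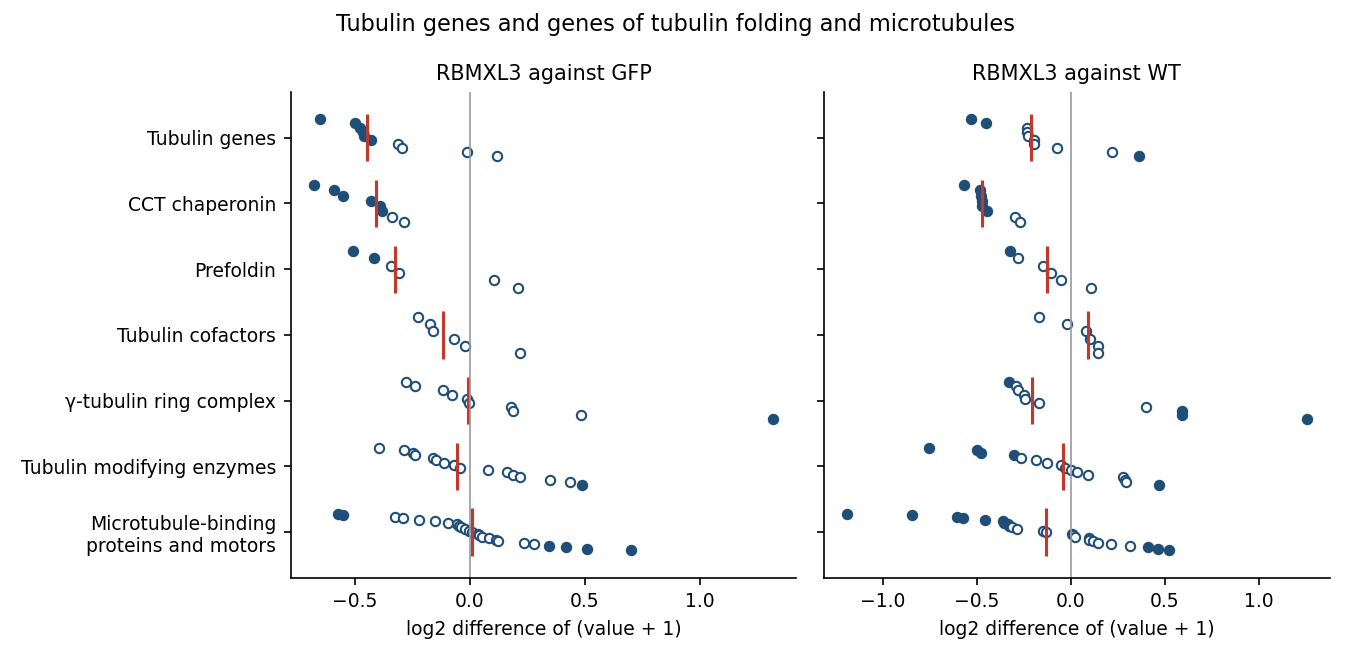
Log2 difference (x axis, log2 of value + 1) of each tested gene of 7 groups, RBMXL3 against GFP (left) and against WT (right), filled where the adjusted p was under 0.05, with a red line at the median of each group. The medians of the CCT chaperonin genes are -0.41 and -0.47 and those of the tubulin genes -0.44 and -0.21, while the γ-tubulin ring complex has MZT1 far to the right, at 1.32 and 1.25.

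Among enzymes that modify tubulin, 16 of 19 genes were tested, with 1 higher against GFP and 1 higher and 4 lower against WT, where 10.5%, 14.6% and 15.3% of all genes did. The median difference of the 16 from GFP was -0.055, and 0.048 without GFP replicate 1. VASH2, a carboxypeptidase that removes the last tyrosine of α-tubulin, rose against both controls, at 0.49 ± 0.14 and 0.47 ± 0.14 (limma, adjusted p = 0.0276 and 0.0242), and without GFP replicate 1 it was 0.32 against GFP and did not pass (adjusted p = 0.0968). Of microtubule-binding proteins and motors 25 of 29 were tested, with 4 higher and 2 lower against GFP and 3 higher and 9 lower against WT. The shares over all genes were 10.5%, 10.4%, 14.6% and 15.3% in the same order. The median difference of the 25 from GFP was 0.0094, and 0.078 without GFP replicate 1. SPAST, which severs microtubules, had 744 to 925 normalised reads in WT, 589 and 772 in GFP, then 1128 and 1095 in RBMXL3, and rose against GFP by 0.70 (limma, adjusted p = 0.0048), or by 0.51 without GFP replicate 1. MAP1S and MAPT, which bind along the lattice, also rose against both controls, MAPT from 23.5 to 27.1 normalised reads in the controls to 45.1 and 48.1. Without GFP replicate 1, MAP1S differed from GFP by 0.44 and passed, while MAPT differed by 0.48 and did not (adjusted p = 0.0991). MAP1A fell against both, at -0.57 and -0.85, and was at -0.39 against GFP without that library. MAPRE2, an end-binding protein, was 1629 and 1357 in WT, 992 and 906 in GFP, then 655 and 622 in RBMXL3. It fell in RBMXL3, at -0.55 against GFP and -1.19 against WT, and also in GFP against WT, at -0.64 (limma, adjusted p = 0.0164). These differences became, with GFP replicate 1 left out, -0.49 from GFP and -0.70 for GFP against WT. Of 12 further tubulin genes 5 were tested, with 0 passing against GFP, also without GFP replicate 1, and TUBE1 higher against WT, at 0.75 ± 0.16 (limma, adjusted p = 0.0048).

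The genes most like the 10 tubulin genes over the 6 libraries were TANGO2, OTUD5 and TRAP1, with correlations of 0.998, 0.995 and 0.992 with the mean centred log2 profile of the members. This is a description over 6 libraries, and within a library all genes were divided by the same size factor. The members were highest in GFP replicate 1, and 387 genes outside the 10 had a correlation above 0.9. TUBG1 followed the mean profile at 0.994 and TUBA1B at 0.986, whereas TUBB2B, at 0.067, and TUBB3, at 0.298, did not follow it. Each member is itself part of that mean, so the correlation of a member is partly built in.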

How the data were processed

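Polyadenylated RNA of 6 TCam-2 libraries was sequenced after column isolation, DNase treatment and stranded library preparation, per the labels' protocols. The submitters' processing notes name Trim Galore 0.6.10, STAR 2.7.11a, DESeq2, Salmon 1.10.2 and GRCh38. The read counter, its strand setting and the annotation release are not given in the sources used here.

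The deposited gene values are a normalised signal: 100% of the 145320 nonzero values were whole multiples of 1 step per library (tolerance 0.001 reads), so they are read counts that were divided by a size factor before deposition. The deposited transcript values are TPM, which keep no depth. 0 table columns belonged to no sample. Symbols were found for 62700 of 62700 gene identifiers, and coordinates come from GENCODE 29.

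The planned test had assumed CPM, whose columns share 1 total. The gene values were instead divided by a common factor of 23.9, which brings the mean column total to that of CPM. The 14292 genes that reached a value of 1 in 2 or more libraries entered limma 3.58.1 (R 4.3.3) as log2(value + 1), in 1 fit of all 6 libraries, with an intensity trend, no covariate, two-sided tests and Benjamini-Hochberg adjustment over all genes, and called at an adjusted p under 0.05. Log2 differences on this scale understate changes of low genes. Transcripts (44693 kept) were tested likewise on log2(TPM + 1). Alternatives were another pseudocount, other filters, quantile and column-total scaling, only the 2 groups compared, a replicate block, each library left out, edgeR 4.0.16 and DESeq2 1.42.0 on the recovered reads, and TPM summed per gene. The scripts were tested on simulated data.

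The members and gene lists were chosen with earlier results of these data known. Named are all members, their transcripts with at least 5 TPM in a library, tested genes on the opposite strand, per list up to 3 genes called in each direction against both controls, and the 3 genes most like the members; PFDN4, TTC5, TUBG2, TUBE1, TUBB4A and FAM166A were added after their values were seen. No molecular identifiers mark the recovered reads, so small counts are uncertain beyond counting error.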

Additional observations from a re-analysis of the deposited data

How the results depend on the processing

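Of 10 tubulin genes, 6 passed against GFP, 3 against WT and 2 in the same direction against both controls. With no filter on low values, which tests 30989 genes, these counts were 0, 0 and 0, the fitted differences staying as they were (TUBA1A at -0.65 against GFP, limma's adjusted p = 0.0531) while calls over all genes fell to 3.07% against GFP and 7.51% against WT. In summed TPM they were also 0, 0 and 0. Scaling by the column total gave 2 against GFP and 1 against both controls; it moved the median log2 difference of all genes to 0.11 against GFP, and the share of higher among all calls to 75.6% from 50.3% against GFP and to 69.3% from 48.8% against WT. Summed TPM moved that share to 78.8% and 60.7%. With only the 2 groups compared in the fit, 7 passed against WT and 4 against both. In that fit 43.1% of all genes passed against WT, beside 29.9% with all 6 libraries. Leaving out 1 library at a time gave 1 to 8 calls against GFP, 0 to 7 against WT, 0 to 7 between GFP and WT, and 0 to 6 against both controls. The counts under another pseudocount, a mean of at least 5, quantile normalisation, edgeR and DESeq2 stayed within 1.5 times. The count of tubulin transcripts was 0 in every fit run.

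Signs turned only in differences that had not passed. In summed TPM they became -0.029 for TUBA1A, -0.049 for TUBB, -0.18 for TUBB2A and -0.083 for TUBB3 in GFP against WT, 0.036 for TUBB against GFP and -0.11 for TUBB3 against WT. Quantile normalisation gave 0.023 for TUBA1B, 0.023 for TUBB and 0.058 for TUBB4B against WT. Scaling by the column total gave 0.048 for TUBB3 against GFP and 0.038 for TUBB4B against WT. Over the fits without 1 library, GFP against WT ran from -0.030 to 0.27 for TUBA1A and from -0.18 to 0.24 for TUBB2A, both lowest without GFP replicate 1. RBMXL3 against GFP ran from -0.039 to 0.27 for TUBB2B, lowest without GFP replicate 2, and from -0.090 to 0.065 for TUBB3, highest without RBMXL3 replicate 1. The causes of these changes were not tested.

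Replicate numbers did not pair the samples: the deviations of same-numbered libraries correlated at -0.16 for WT with GFP, 0.03 for WT with RBMXL3 and -0.09 for GFP with RBMXL3. With the replicate block the counts were 6 against GFP, 2 against WT, 0 between GFP and WT and 2 against both controls, the call lost being that of TUBB2B. Over all genes 16.7% passed against GFP in that fit, 25.9% against WT and 1.34% between GFP and WT. With 2 libraries in a group the precision rests on the spread pooled over all 6.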
